A study of Homo sapiens with 2 samples.

Results

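The genes described here are the clustered replication-dependent histone genes, the source of most of the histone protein that a cell packs onto newly made DNA. They were taken as every entry of both tables of the SK-ES-1 cell line whose symbol starts with HIST1H, HIST2H, HIST3H or HIST4H, without pseudogenes. Of 90 such entries, 20 were pseudogenes by their RefSeq gene class or by their own symbol, which left 70 genes among the 53737 in the tables. By class they are 6 linker histone H1 genes, 17 of H2A, 18 of H2B, 14 of H3 and 15 of H4.

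SK-ES-1 is an established cell line of Ewing sarcoma, a bone and soft tissue tumour driven by a fusion of EWSR1 with an ETS gene. The study profiled slow-cycling cells, called SCC below, and other cells, called non-SCC, by 1 library each, both labelled as bone and wild type, with no treatment or time given. The table headers call the groups LRC and non-LRC, terms the sources used here do not explain, and how the slow cells were separated is not given in them either. All values come from 1 line and 1 library a group, so each difference is between 2 libraries and has no replicate check.

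Histones H2A, H2B, H3 and H4 form the core around which DNA is wound, and H1 binds the DNA between cores. The clustered genes are transcribed in S phase, when the coactivator NPAT is switched on by cyclin E and CDK2. Their mRNAs usually end in a short conserved stem-loop instead of a poly(A) tail, and the protein SLBP binds this loop. Some of these genes also make polyadenylated transcripts, mostly described in cells that have left the cycle. The library kit selected polyadenylated RNA, so the values below describe the transcripts that such a selection captured, and the share of histone mRNA that it captured was not tested.

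The stem-loop is shown here because it is the feature that sets these mRNAs apart. In GENCODE release 29 it was found after the stop codon in the annotated transcripts of 32 of the 70 genes, by a search for the histone stem-loop consensus of 16 bases on the transcript strand. Across all 19669 protein-coding genes of that annotation 0.539% held it anywhere in a transcript. Most of the other members could not show it, since 34 of the 70 have annotated transcripts that end at the stop codon. The forms found follow, with the paired arms in capitals and the loop in lower case.
H2A, H2B and H3, 17 genes: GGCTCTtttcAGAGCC
H2B and H3, 5 genes: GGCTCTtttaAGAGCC
HIST1H3E: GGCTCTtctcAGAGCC
HIST1H2AG: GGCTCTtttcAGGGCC
H4, 5 genes: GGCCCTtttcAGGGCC
H4, 3 genes: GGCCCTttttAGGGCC
The left arm was GGCTCT in all 24 loops of H2A, H2B and H3 genes and GGCCCT in all 8 loops of H4 genes. No H1 transcript in that annotation held the loop, but those of HIST1H1A, HIST1H1B, HIST1H1C and HIST1H1D end at the stop codon and could not show it.

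Levels are in per-million units: 2 was raised to each deposited log2 value and 1 was subtracted. That the values are log2 of a per-million level plus 1 is inferred from the tables, where values so converted sum to 983638 and 984120, and is not stated in the labels. Every level and ratio below rests on this reading. Nor do the labels say whether the values were divided by transcript length, so orders of level among genes are orders of the deposited values. The ratio of a gene is its log2(level + 1) in the SCC minus that in the non-SCC library. This scale understates differences of low genes. A gene was compared when it reached 1 per-million unit in at least 1 library, and was counted as higher or lower from 1.5-fold on that scale.

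The histone genes made up a small part of each library, and a few of them made up most of that part. Together the 70 summed to 253.8 per-million units in the SCC and 179.7 in the non-SCC library, a 1.41-fold difference. In bulk libraries fewer cells of a type and less RNA per cell cannot be told apart. The 4 with the highest mean level, HIST1H2BK, HIST1H2BH, HIST1H2BD and HIST1H2AC, held 56.9% of that sum in the SCC and 59.6% in the non-SCC library. Of the 70, 35 reached the minimum, 16 were above 0 but under it, with a highest value of 0.853, and 19 were listed at 0 in both libraries. A 0 may be an estimate that failed, so such genes are described only as listed at 0. The testis histones HIST1H1T, HIST1H2AA, HIST1H2BA and HIST3H3 were all among the 19.

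In the SCC library 20 of the 35 compared genes were higher by 1.5-fold or more, and 8 were lower by as much. Over all 13444 genes compared, 5.38% were higher and 1.41% lower by as much. At 2-fold, 11 were higher and 4 lower, beside 1.9% and 0.431% of all genes. Their median log2 ratio was 0.68, beside 0.03 for all genes. These counts lean on low genes: 16 of the 35 were under 1 per-million unit in the other library, so that they passed the minimum through the library in which they were high, 9 in the SCC and 7 in the non-SCC library. Of the 19 at 1 unit or more in both libraries, 11 were higher and 3 lower. Among the 35, 2 genes were listed at 0 in the SCC and 2 in the non-SCC library. Their ratios rest on the added 1, so they are counted and plotted but no fold is given.

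Low genes differed more often throughout the tables, so the members are also set beside genes of like level. Among the 26 members with a mean under 5 per-million units, 13 were higher and 7 lower, where 21.4% and 5.25% of the 2512 genes at such levels were. Among the 9 members with a mean of 5 or more, 7 were higher and 1 lower, beside 1.7% and 0.521% of 10932 genes. Of 24 other compared protein-coding genes that span under 1000 bases, 4.17% were higher and 8.33% lower. The plot of ratio against level shows the members among all genes.

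**Figure D1:**
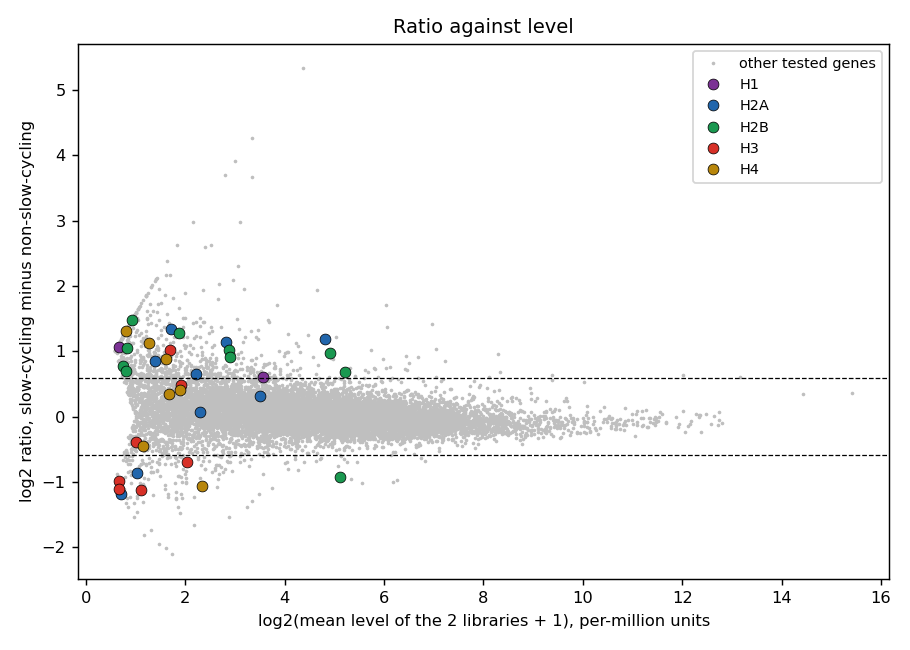
Log2 ratio, SCC (slow-cycling) minus non-SCC, against log2 of the mean level plus 1 in per-million units, with 1 point per compared gene. Coloured points are the 35 histone genes by class, grey points the other genes, and dashed lines mark 1.5-fold; the 9 members with a mean of 5 or more lie outside the lines except HIST2H2AC, and the spread of grey points widens at low levels.

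H2B, which pairs with H2A in the core, was the class with the highest summed level. It summed to 135.4 per-million units in the SCC and 102.7 in the non-SCC library, 1.32-fold. Of its 10 compared genes, 9 were higher and 1 was lower. HIST1H2BF, HIST1H2BJ, HIST2H2BF and HIST1H2BI, among the 9, reached the minimum only in the SCC library, which fixed their direction. HIST1H2BK (gene ID 85236), the member with the highest mean, was at 44.3 in the SCC and 27.4 in the non-SCC library, a log2 ratio of 0.68. HIST1H2BD (gene ID 3017) was at 39.1 and 19.4, a log2 ratio of 0.97. HIST1H2BH (gene ID 8345) went the other way, at 23.0 and 44.2, a log2 ratio of -0.92. It thus had the highest level of the 70 genes in the non-SCC library, but stood behind HIST1H2BK, HIST1H2BD and HIST1H2AC in the SCC library. Without HIST1H2BH the log2 ratio of the H2B sum was 0.94 instead of 0.40, and without HIST1H2BK it was 0.27.

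The other 7 compared H2B genes were lower in level and higher in the SCC library. HIST2H2BE was at 8.85 and 3.88, and HIST1H2BC at 8.76 and 4.17, with log2 ratios of 1.01 and 0.92. HIST1H2BG was at 4.17 and 1.14, a log2 ratio of 1.28. Near the minimum, HIST1H2BF was at 1.79 and listed at 0. HIST1H2BJ was at 1.39 and 0.158, HIST2H2BF at 1.15 and 0.334, and HIST1H2BI at 1.12 and 0.242, with ratios of 1.05, 0.69 and 0.77. The other 8 H2B genes were not compared: 4 were listed at 0 throughout, and 4 reached no more than 0.719.

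H2A was the next class by level, with a sum of 74.9 per-million units in the SCC and 41.2 in the non-SCC library, 1.82-fold, the largest fold of the 5 class sums. HIST1H2AC (gene ID 8334) carried much of it, at 38.2 and 16.1, a log2 ratio of 1.19, and without it the log2 ratio of the sum was 0.56 instead of 0.86. HIST2H2AC, at 11.5 and 9.04, lay within 1.5-fold with a log2 ratio of 0.31, as did HIST3H2A at 3.998 and 3.779, with 0.06. HIST1H2AG was at 3.66 and 0.843, its ratio being 1.34. HIST1H2AK was at 2.37 and 0.866, with 0.85. Lower in the SCC library were HIST1H2AI, at 0.447 and 1.62, and HIST1H2AL, listed at 0 against 1.27. In all, 5 of the 9 compared H2A genes were higher and 2 lower. HIST1H2AG and HIST1H2AK, among the higher, and both lower genes passed the minimum only through the library in which they were high. Their direction was thus fixed.

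HIST2H2AA3, at 8.78 and 3.42, and HIST2H2AA4, at 4.70 and 2.64, have the same coding sequence, so reads cannot be assigned between them from that part and each value is uncertain. Their sum, 13.5 and 6.05 per-million units, was 2.23-fold higher in the SCC library. Summing copies gave another picture for HIST1H4J and HIST1H4K, which also share 1 coding sequence. HIST1H4J was higher, at 2.94 and 1.14, and HIST1H4K lower, at 2.29 and 5.84, with log2 ratios of 0.88 and -1.06. Together they were at 5.22 and 6.98, a log2 ratio of -0.36 for the sum, and how the counting divided their reads is not given in the labels. Of the 70 genes, 8 share their whole coding sequence with another member, and the median identity of a member to its nearest relative was 89.2%. The RefSeq models of 3 compared genes also overlap another member on the other strand: HIST2H2AA4 and HIST2H4B overlap each other, and HIST1H2BK overlaps HIST1H4I. Whether reads were counted by strand is not given in the labels.

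**Figure D2:**
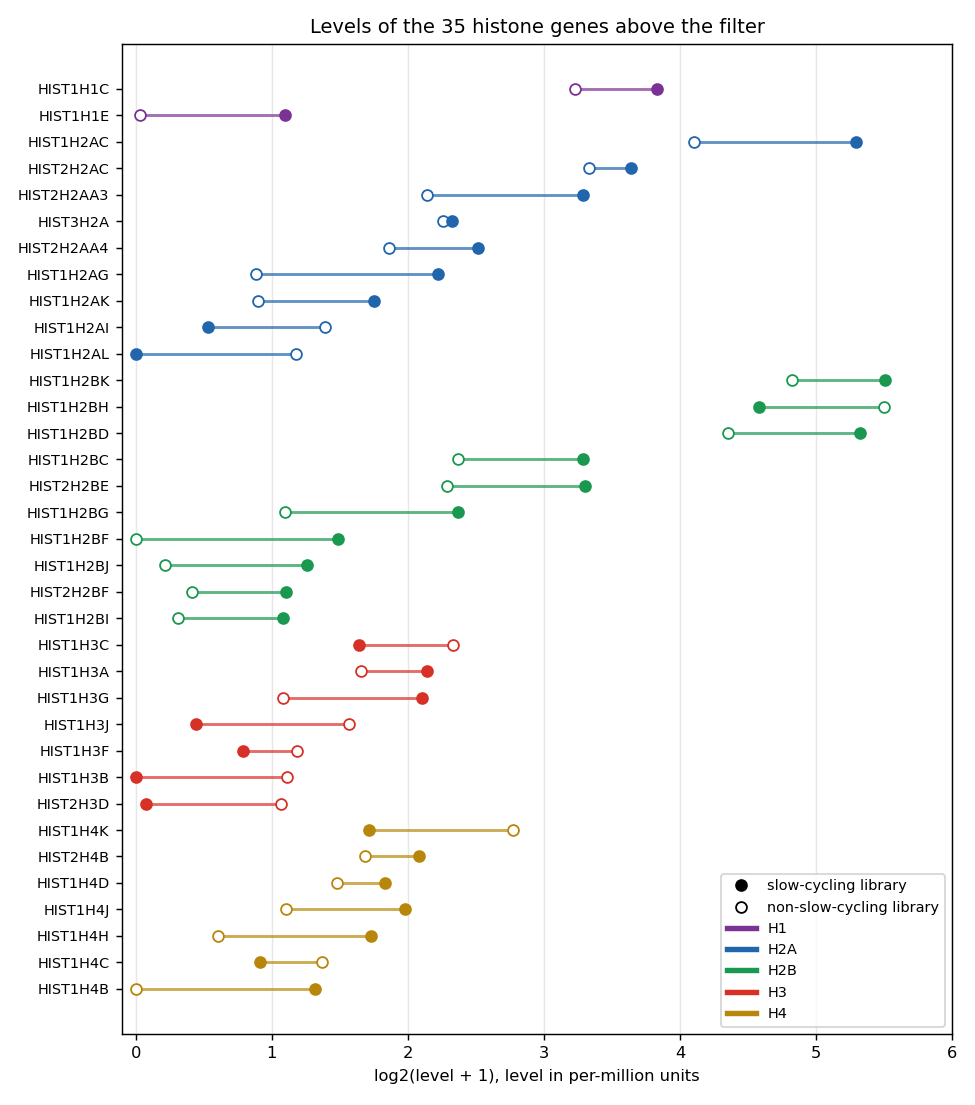
Level of each of the 35 compared histone genes in both libraries, as log2(level + 1) with levels in per-million units, grouped by class and ordered by mean level. Filled circles are the SCC and open circles the non-SCC library. Filled circles lie to the right for 9 of 10 H2B genes, HIST1H2BH being the exception, and to the left for 5 of 7 H3 genes. Genes under 1 unit in 1 library passed the minimum through the other, which fixed their direction.

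Linker histone genes were few. H1 summed to 14.8 per-million units in the SCC and 8.38 in the non-SCC library, 1.77-fold, nearly all of it from HIST1H1C. HIST1H1C (gene ID 3006) was at 13.2 and 8.35, a log2 ratio of 0.60, just past the threshold; after centring on the median of all genes it lay just under it, at 0.57. HIST1H1E was at 1.14 and 0.0237, a log2 ratio of 1.07. HIST1H1B was at 0.448 and listed at 0, while HIST1H1A, HIST1H1D and HIST1H1T were listed at 0 in both libraries.

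H3, whose tail carries many of the marks that regulate chromatin, was the class whose sum was lower in the SCC library. The sum was 11.3 per-million units against 14.1, a log2 ratio of -0.32, and -0.13 without HIST1H3C. Of 7 compared genes 4 were lower, 1 was higher and 2 lay within 1.5-fold. HIST1H3J, HIST2H3D and HIST1H3B, 3 of the 4 lower genes, reached the minimum only in the non-SCC library, which fixed their direction. HIST1H3C was at 2.12 in the SCC and 4.03 in the non-SCC library, a log2 ratio of -0.69. HIST1H3J was at 0.356 and 1.96, and HIST2H3D at 0.0551 and 1.09, with log2 ratios of -1.13 and -0.99. HIST1H3B was listed at 0 against 1.16. HIST1H3G was the higher gene, at 3.31 and 1.12, with 1.03. HIST1H3A was at 3.41 and 2.16, with 0.48, and HIST1H3F at 0.727 and 1.27, with -0.39. All 7 had a mean under 5 per-million units.

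H4, the partner of H3 in the core, was mixed. Its sum was 17.4 per-million units in the SCC and 13.4 in the non-SCC library, a log2 ratio of 0.37, and 0.99 without HIST1H4K. Of 7 compared genes, 3 were higher and 1, HIST1H4K, was lower. Besides HIST1H4J, the higher genes were HIST1H4H, at 2.32 and 0.520, and HIST1H4B, at 1.49 and listed at 0. HIST1H4H and HIST1H4B reached the minimum only in the SCC library, which fixed their direction. HIST2H4B was at 3.24 and 2.21, HIST1H4D at 2.56 and 1.79, and HIST1H4C at 0.881 and 1.58, all within 1.5-fold. HIST2H4B shares its coding sequence with HIST2H4A, which was listed at 0 and at 0.322, and their sum was at 3.24 and 2.53. HIST4H4, the only gene of its cluster, was listed at 0 in both libraries.

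**Figure D3:**
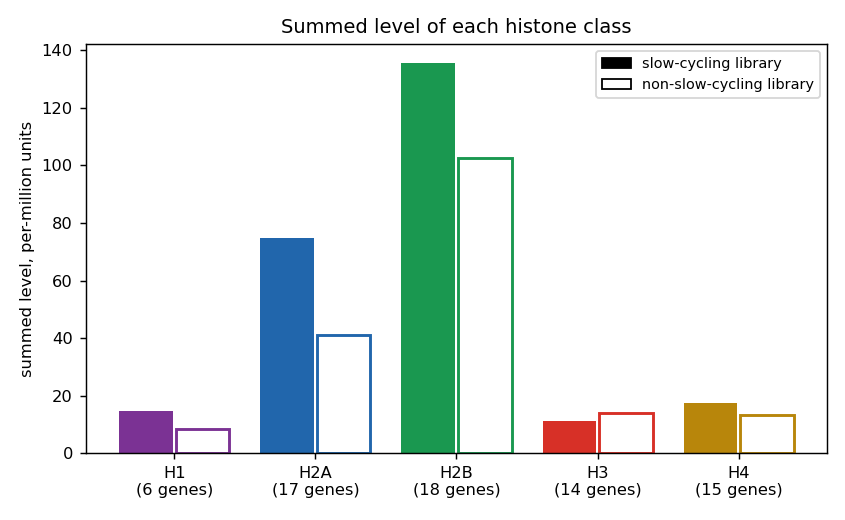
Summed level of all members of each histone class in per-million units, with filled bars for the SCC and open bars for the non-SCC library and the number of genes under each class. H2A and H2B hold most of the histone signal in both libraries, and H3 is the class with the lower filled bar, at 11.3 against 14.1.

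By position, the HIST1 genes lie on chromosome 6 in 4 blocks when gaps of over 200 kilobases are taken as breaks (GRCh38). The large block from HIST1H1A to HIST1H4H (26017032 to 26285534) holds 32 members. Of its 18 compared genes 11 were higher and 3 lower, and its sum was 150.0 per-million units in the SCC and 108.7 in the non-SCC library. Of the higher genes HIST1H4B, HIST1H1E, HIST1H2BF, HIST1H2BI and HIST1H4H, and of the lower HIST1H3B, passed the minimum only through the library in which they were high. Their direction was thus fixed, and the split rests in part on the minimum. The short block from HIST1H2BJ to HIST1H2AH (27132316 to 27147562) holds 5 members, and its 3 compared genes were all higher, of which HIST1H2BK alone reached 1 unit in both libraries. In the block from HIST1H2BL to HIST1H2BO (27807479 to 27893891), with 16 members, 6 genes were compared, 2 higher and 4 lower. HIST1H2AI, HIST1H2AL, HIST1H3J and HIST1H2AK passed the minimum only through the library in which they were high, which fixed their direction, so the split says nothing about the block. Its sum was 11.5 and 15.2 per-million units, 0.756-fold. HIST1H4J and HIST1H4K, which share a coding sequence, were the only 2 of the 6 at 1 unit or more in both libraries, and all 6 had means under 5 per-million units. The first block, the pair HIST1H2AA and HIST1H2BA, was listed at 0.

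The HIST2 cluster on chromosome 1 (149782689 to 149887965) holds 11 members, of which 7 were compared, 4 higher and 1 lower. HIST2H2BF, among the higher, and HIST2H3D, the lower gene, passed the minimum only through the library in which they were high. The cluster summed to 38.3 and 23.1 per-million units, 1.66-fold, against 1.38-fold for HIST1 as a whole. The HIST1 sum includes HIST1H2BH, at 23.0 and 44.2, and the order of the cluster folds depends on that gene. The 3 HIST3 genes, further along chromosome 1, were represented by HIST3H2A alone. The plot of ratios in chromosomal order shows genes of both directions within blocks. HIST1H2BH and its neighbour HIST1H3F were both below 0, while the next gene, HIST1H3G, was above it. HIST1H3F reached the minimum only in the non-SCC library, which fixed its direction.

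**Figure D4:**
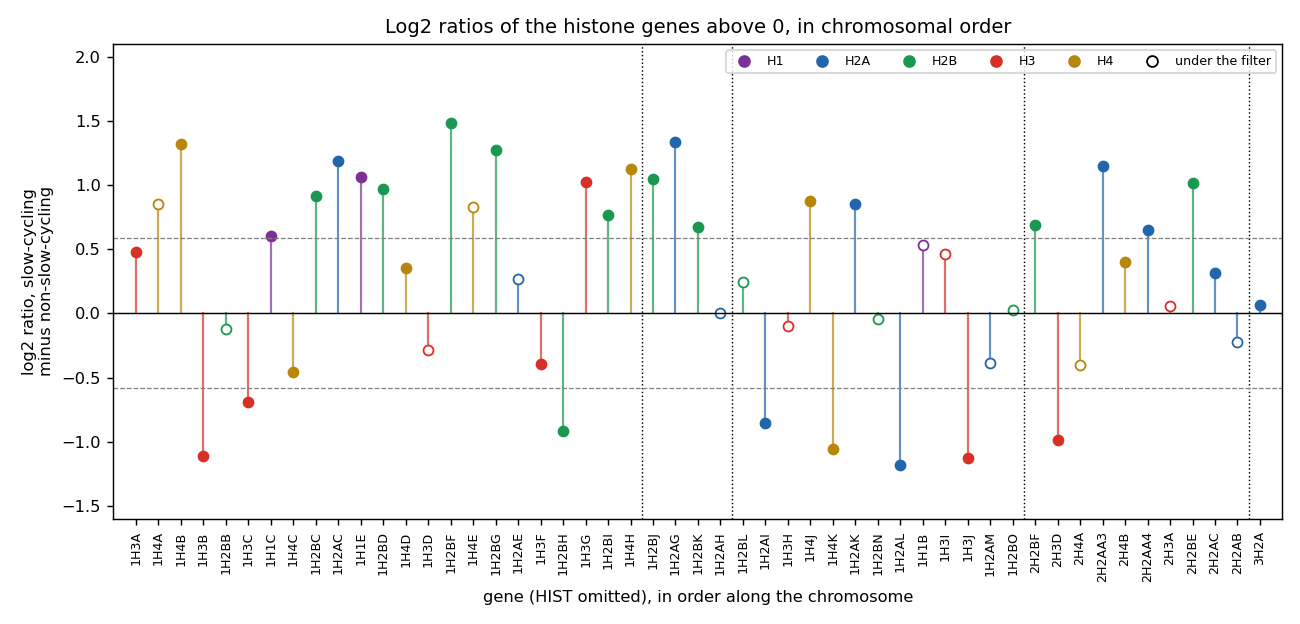
Log2 ratio, SCC minus non-SCC, of the 51 histone genes above 0 in at least 1 library, in order along chromosome 6 and then chromosome 1, with dotted lines between blocks and dashed lines at 1.5-fold. Colours give the class and open circles the 16 genes under the minimum level; HIST1H2BH, at -0.92, lies below 0 beside HIST1H3G, at 1.03.

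Many H2A and H2B genes lie head to head and share the stretch between their starts. With at most 1000 bases between starts, 12 such pairs were found, 193 to 247 bases apart. Both genes were compared in 3 pairs. HIST1H2AC and HIST1H2BC both had ratios above 0, as did HIST2H2AC and HIST2H2BE. HIST1H2AG and HIST1H2BJ were above 0 too, but both reached the minimum only in the SCC library, which fixed that direction. Levels within a pair were unequal. HIST1H2BK, at 44.3 and 27.4 per-million units, lies opposite HIST1H2AH, at 0.679 and 0.677. HIST1H2AC, at 38.2 and 16.1, lies opposite HIST1H2BC, at 8.76 and 4.17. In the pair HIST1H2AI and HIST1H2BL, the first was lower, at 0.447 and 1.62, and the second was at 0.387 and 0.171. Both genes were listed at 0 in 2 pairs.

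The promoters of leading members are shown because these genes were abundant in both libraries and 1 of them differed in direction. Sequences are from RefSeq on GRCh38.p14, whose promoter table held 65 of the 70 genes. The first is the stretch between the starts of HIST1H2BC and HIST1H2AC (chr6:26123927-26124171, plus strand, reading toward HIST1H2AC). The next 3 are the 120 bases before the start of HIST1H2BK (chr6:27146859-27146978, minus strand), HIST1H2BD (chr6:26158001-26158120, plus strand) and HIST1H2BH (chr6:26251494-26251613, plus strand). Capitals mark ATTTGCAT, the octamer bound by POU2F1, the CCAAT box and the TATA sequence TATAAA, on either strand.
HIST1H2BC-HIST1H2AC: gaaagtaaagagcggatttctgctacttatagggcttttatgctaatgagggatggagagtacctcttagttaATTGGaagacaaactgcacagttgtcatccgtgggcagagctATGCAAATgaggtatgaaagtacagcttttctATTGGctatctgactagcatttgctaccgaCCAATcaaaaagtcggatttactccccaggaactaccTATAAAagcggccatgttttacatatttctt
HIST1H2BK: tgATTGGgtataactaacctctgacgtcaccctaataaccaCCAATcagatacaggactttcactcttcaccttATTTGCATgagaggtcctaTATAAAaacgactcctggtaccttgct
HIST1H2BD: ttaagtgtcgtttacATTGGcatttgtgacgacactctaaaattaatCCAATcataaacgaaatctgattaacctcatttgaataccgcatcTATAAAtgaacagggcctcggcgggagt
HIST1H2BH: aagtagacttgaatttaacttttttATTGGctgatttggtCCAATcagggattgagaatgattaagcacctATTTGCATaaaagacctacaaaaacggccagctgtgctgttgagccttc
The fifth is the 130 bases before HIST1H1C (chr6:26056471-26056600, minus strand), with AAACACA, an element of H1 promoters, and CCAAT in capitals. TATAAA was searched for and is not in this stretch.
HIST1H1C: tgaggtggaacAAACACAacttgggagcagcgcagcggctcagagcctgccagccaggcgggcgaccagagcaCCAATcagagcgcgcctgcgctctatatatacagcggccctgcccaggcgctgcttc

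Over windows from 250 bases before to 50 after the start, promoter sequence followed histone class. The octamer ATTTGCAT was in 14 of 18 H2B and 11 of 16 H2A windows, 1 of 12 of H3 and none of H1 or H4, against 1.80% of all 27305 promoters in the table. Head-to-head pairs share much of their windows, so these are not independent counts. AAACACA was in all 6 H1 windows, 1 of H2A and 2 of H3, against 5.76% of all promoters. CCAAT was in every H1, H2A, H2B and H3 window and in 3 of 13 of H4, against 35.7% of all, and TATAAA in 3 of 6 H1, 12 of 16 H2A, 12 of 18 H2B, 9 of 12 H3 and 7 of 13 H4 windows, against 12.0%. Within H2A and H2B, the octamer was in 10 of 14 windows of higher genes and 2 of 3 of lower genes. HIST1H2BH, the abundant lower gene, held it, and HIST1H2BD, an abundant higher gene, did not.

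The ends of the annotated transcripts are set beside the ratios as a description. GENCODE transcripts that run at least 100 bases past the stem-loop, a distance chosen after the values were seen, were annotated for 12 compared genes. Of these 9 were higher and 1, HIST1H2BH, was lower, with a median log2 ratio of 1.02. Annotated transcripts of 6 others end nearer to the loop, and 5 of these were higher and 1 lower. The remaining 17 have no loop in their annotated transcripts, and 6 of them were higher and 6 lower, with a median of 0.31. Of these 17, 14 have annotated transcripts that end at the stop codon and so could not show a loop. In each group some higher or lower genes passed the minimum only through the library in which they were high, which fixed their direction. Past the loop these were HIST2H2BF, HIST1H2BF, HIST1H4H and HIST1H2AG, and nearer to it HIST1H4B and HIST1H2AI. Without a loop they were HIST1H1E, HIST1H2BI, HIST1H2BJ and HIST1H2AK, all higher, and HIST2H3D, HIST1H3B, HIST1H2AL and HIST1H3J, all lower. A polyadenylation signal, AATAAA or ATTAAA, lay within 40 bases of an annotated end for 12 of the 20 higher genes and for 1 of the 8 lower genes, again HIST1H2BH. Genes whose annotated transcripts end at the stop codon could not show a signal. Among the lower genes these were HIST2H3D, HIST1H3B, HIST1H3C, HIST1H4K, HIST1H2AL and HIST1H3J. Among the higher genes they were HIST1H1C, HIST1H2BI, HIST1H2BK and HIST1H2AK. The split by signal thus follows in part how far the annotation reaches. The higher and the lower genes of this split include the same genes whose direction the minimum fixed. Class moved with this grouping, since 6 of the 7 compared H3 genes, the class with most lower genes, were among the 17 without a loop. Whether the annotation that the submitters used had the same ends is not given in the sources used here. The part of class or annotation in the ratios was not tested.

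**Figure D5:**
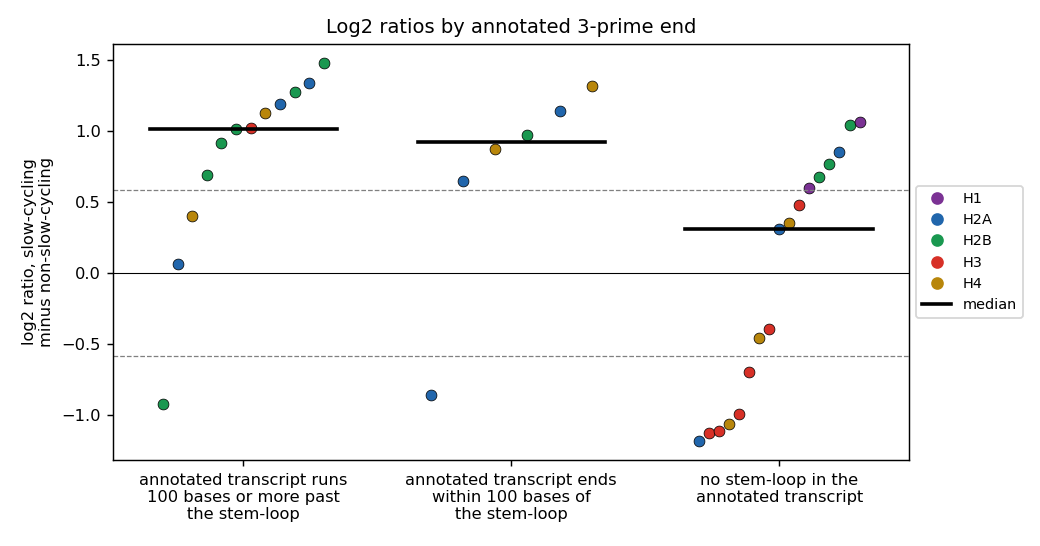
Log2 ratio, SCC minus non-SCC, of the 35 compared histone genes, split by how the annotated transcript ends relative to the stem-loop; colours give the class, bars the median of each group and dashed lines 1.5-fold. The group whose transcripts run past the loop has 1 gene below 0, HIST1H2BH, and the group without a loop in its annotated transcripts has 8 of 17. Of these 17, 14 have annotated transcripts that end at the stop codon and could not show a loop. Each group includes genes that passed the minimum through only 1 library, which fixed their direction.

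Among these genes, 5 are known from other cells to make polyadenylated mRNA: HIST1H1C, HIST1H2AC, HIST1H2BD, HIST1H2BK and HIST2H2BE. All 5 were past 1.5-fold in the SCC library, with a median log2 ratio of 0.97 and a range from 0.60 to 1.19. After centring on the median of all genes 4 of them still were, HIST1H1C being then at 0.57. All 5 had a mean of 5 or more. Of the 9 members at such levels 7 were higher and 1, HIST1H2BH, which is not among the 5, was lower. Among all 10932 genes at such levels 1.7% were higher and 0.521% lower. The annotated transcripts of HIST1H1C and HIST1H2BK end at the stop codon, so they could not show the loop. It is present in those of the other 3. The 5 genes summed to 143.6 per-million units in the SCC and 75.2 in the non-SCC library, of the 253.8 and 179.7 of all 70 genes.

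The genes that make and handle histone mRNA, and the chaperones of histone proteins, lay within 1.5-fold. Of these 34 genes, all compared and all with a mean of 5 or more, 0 were 1.5-fold higher or lower. Among all 10932 genes at such levels 1.7% were higher and 0.521% lower, so a count of 0 is near the share of all genes. Below 0 lay 25 of the 34, and the median of their ratios was -0.09, beside 0.01 for all genes at such levels. NPAT, the coactivator of histone transcription, was at 15.9 per-million units in the SCC and 16.1 in the non-SCC library. Of the 7 transcription genes, POU2F1, which binds the octamer, was at 15.6 and 10.9, the highest log2 ratio at 0.48, and cyclin E2, CCNE2, was the lowest at -0.37. HINFP, a factor of H4 promoters, had a log2 ratio of 0.04, and cyclin E1, CCNE1, of -0.19.

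Processing of the stem-loop end needs SLBP and CASP8AP2. SLBP was at 104.0 and 124.2 per-million units, a log2 ratio of -0.25, and CASP8AP2 at 33.3 and 36.3, with -0.12. Among the 12 processing genes SRRT was lowest, at 259.5 and 330.6. ZNF473, a protein of the machinery built on the U7 RNA, was highest at 0.15. Next came NCBP2, at 133.5 and 121.5 per-million units with a log2 ratio of 0.135, and then LSM11, a U7 component, with 0.131. Of 5 genes of histone mRNA decay and translation, the nuclease ERI1 had a log2 ratio of -0.10, the decay factor LSM1 -0.11, ZCCHC6 0.01 and MIF4GD 0.00. Histone chaperones, which carry new histones to DNA, were below 0 in 8 of 10 cases, with a median of -0.12. The largest of these differences were in CHAF1B, at 44.6 and 55.8, and CHAF1A, at 86.8 and 103.4, subunits of chromatin assembly factor 1. NAP1L1 and RBBP4 had log2 ratios of 0.00 and 0.04.

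S phase genes lay on the other side of 0 from most histone genes, by smaller amounts. Of 42, 41 lay below 0, and their median ratio was -0.14, beside 0.03 for all genes. None was 1.5-fold lower, a count near the 1.41% of all compared genes. PCNA, the sliding clamp of DNA polymerase, was at 456.6 and 537.7 per-million units, and the helicase subunit MCM7 at 410.4 and 499.4. All 36 genes of G2 and mitosis were above 0, with a median of 0.24, beside 0.03 for all genes. The highest ratio was 0.56, so 0 were 1.5-fold higher, beside 5.38% of all compared genes. The part of cell cycle position in the histone values was not tested.

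Replacement histone variants, which sit outside these clusters and whose mRNAs are mostly polyadenylated, summed to 3618 and 3845 per-million units over 12 genes. H3F3C was listed at 0 in both libraries and H2AFJ, the lowest of the others, was at 4.14 and 5.23. Of 11 compared, 0 differed by 1.5-fold, and their log2 ratios ran from -0.28 to 0.23. Over all compared genes 5.38% were higher and 1.41% lower by as much, so that count is near the share of all genes. H2AFZ, which encodes H2A.Z, was at 1037 and 1227 per-million units, H3F3A at 814.3 and 855.8, and H3F3B at 378.0 and 376.0. No test of the difference between these variants and the clustered genes was possible with 1 library a group.

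The Ewing sarcoma markers were present in both libraries, with all 8 compared and log2 ratios from -0.30 to 0.24. Of 9 markers of blood, endothelial and epithelial cells, 6 were listed at 0 in both libraries, PTPRC, CD3E, VWF, CDH5, PECAM1 and KRT5. The other 3 were compared and all were above 0: CD68 was past 1.5-fold, at 4.36 and 2.28 per-million units, KRT8 was at 3.51 and 2.89, and EPCAM at 1.37 and 1.21. All 9 summed to 9.24 and 6.39. The 7 fibroblast markers summed to 223.6 and 206.7, with 6 compared, all above 0, and 2 of them higher by 1.5-fold. Ewing sarcoma cells can themselves express such matrix genes, and the part of other cells in the histone values was not tested.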

How the data were processed

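SK-ES-1 mRNA was sequenced from slow-cycling cells (SCC) and other cells (non-SCC), 1 library each. The kit was stranded and selected poly(A) RNA, per the labels' protocols. The submitters' processing notes name hg38. No aligner, counter or read depth is given there. The deposited values, called normalized per the file headers, were read as log2 of a per-million level plus 1. This reading is inferred from their back-transformed sums, 983638 and 984120. Low values shared no common step, so whole reads were not recovered and the depth is unknown. Of 53826 lines, 53737 distinct genes were used.

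Ratios were log2(level + 1) in SCC minus non-SCC, for the 13444 genes at 1 unit or more in at least 1 library. With 1 library a group there is no test, and counts were read against all genes at 1.5-fold. On simulated libraries of 13444 genes, 100% of 100 genes seeded at 2-fold and 1.925% of unchanged genes were called higher. Seeds were drawn only from genes with a mean log2(level + 1) above 3. The 26 compared members with a mean under 5 units are below that, as are HIST2H2AA3, HIST2H2BE and HIST1H2BC. The simulation says nothing about any of these members. Noise was drawn from a normal distribution, and the 1.925% lies below the 5.38% of all compared genes that were called higher. All compared members are named. Of the regulator lists, NPAT, SLBP, CASP8AP2 and the 2 highest and 2 lowest ratios of each list are, and of other lists at most 3 genes of the highest level, beside all 9 blood, endothelial and epithelial markers, named after their values were seen. Members, lists and thresholds were chosen with earlier results of these data known. Gene positions are RefSeq GRCh38.p14 and transcript ends GENCODE release 29. Python 3.11.15, numpy 2.4.6, pandas 2.3.3 and matplotlib 3.10.9 were used. Alternatives covered the pseudocount, the filter, the threshold, scaling and members left out.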

Additional observations from a re-analysis of the deposited data

How the results depend on the processing

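No paired analysis was possible because each group has 1 library, and for the same reason no replicate could be left out. Of 54 alternatives for the counts, medians and class sums, 37 changed little. For a count this means within 1.5-fold, and for a median or sum by under 0.1. A count could not reverse by this rule, and 0 medians or sums did. The count of higher genes, 20, became 7 at 5 units in at least 1 library and 11 at 2-fold, where 1.9% of all genes were higher. The count of lower genes, 8, became 5 at a mean of at least 1 unit, 2 at 5 units in at least 1 library and 4 at 2-fold. The median log2 ratio, 0.68, became 0.40 without a filter, 0.80 at 5 units and 0.81 with a pseudocount of 0.1. A mean of at least 5 units, chosen after seeing the data, left 7 higher, 1 lower and a median of 0.92. Without the highest member, the log2 ratio of a class sum became 6.07 for H1 (almost nothing was left), 0.56 for H2A, 0.27 for H2B, -0.13 for H3 and 0.99 for H4. Without HIST1H2BH, also chosen after seeing the data, the H2B sum became 0.94. The smaller counts come from fewer genes compared or a higher threshold. Of 105 alternatives for single members 28 moved by over 0.1, all with the pseudocount of 0.1. A reversal was not possible here. The pseudocount keeps the sign of a ratio, and the scaling shifts were smaller than the ratio of any compared member. HIST1H1C fell below 1.5-fold when ratios were centred on the median of all genes. The unknown depth limits every member near 1 unit.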

Other observations

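Among the 20 pseudogenes left out, HIST2H2BC was the only one above 0, at 16.5 per-million units in the SCC and 10.7 in the non-SCC library. That is a higher level than all but 4 members had in the SCC library.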
